A study of Phaseolus vulgaris with 12 samples.

Results

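A group of 3 genes of common bean (Phaseolus vulgaris), of the 27996 listed in the deposited tables, is described here across leaf samples. It holds a cinnamoyl-CoA reductase gene (PHAVU_005G182100g) and 2 phenylalanine ammonia-lyase genes that lie close together (PHAVU_001G177800g and PHAVU_001G1777001g). The enzyme names come from the study, because the tables carry identifiers and no gene descriptions. The genes were selected on measured values, namely their difference between droughted 6PP and polymer plants in these same samples, so that comparison is given below as a description without a test. The study asked how coating seeds with 6PP (6-pentyl-α-pyrone, a lactone that Trichoderma fungi release) changes the way bean plants meet drought.

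All plants were of the genotype Dwarf messi, and the tissue was leaf. Seeds were coated either with a commercial polymer and water (polymer) or with the same polymer carrying 114 mM 6PP (6PP), so the control plants carry the polymer too. Plants were kept irrigated (well-watered) or were left without water from the second trifoliate leaf for about 16 days, until wilting stage 3 (drought). Each replicate was a pool of 5 plants and 3 replicates were planned in each of the 4 groups, so a value is an average over a pool and says nothing of single plants. The labels describe the material as mixed leaf cells, and in such bulk samples fewer cells of a type and less RNA per cell cannot be told apart.

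Of 12 libraries, 10 could be used, with 39974999 to 55648172 reads on genes. Well-watered 6PP, well-watered polymer and drought polymer plants have 3 libraries each, and drought 6PP plants have 1, the one labelled replicate 3. The file of drought 6PP replicate 2 holds 2 tables, of which one is identical to replicate 3 and the other counts 18.6 times as many gene reads as the deepest library used, and the file of replicate 1 holds 12 tables on other gene identifiers. Introns took 4.97% to 8.0% of the gene reads of a library, the highest share being that of the drought 6PP library. TPM (transcript abundance) is exon reads divided by exon length, then scaled to the same total in every library. Its sum over 7 leaf marker genes, which encode photosystem and chlorophyll-binding proteins, ran from 16342 to 19058 in the well-watered libraries. It ran from 1774 to 3017 in drought polymer plants and was 671 in the drought 6PP library, and 0 of the 7 markers was at 0 in any library. The markers were thus lowest in the library on which all drought 6PP values rest, and the part of this in the results below was not tested.

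Phenylalanine ammonia-lyase opens the phenylpropanoid pathway by removing ammonia from phenylalanine, which gives cinnamic acid. Cinnamate 4-hydroxylase and 4-coumarate-CoA ligase then make p-coumaroyl-CoA, from which flavonoids and the lignin precursors both derive. Cinnamoyl-CoA reductase takes hydroxycinnamoyl-CoA esters into the branch that ends in monolignols, the building units of lignin in cell walls, and caffeoyl-CoA 3-O-methyltransferase supplies it with feruloyl-CoA.

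The reductase gene is listed on chromosome 5, from 40358576 to 40361465 on the minus strand, with 5 exons. The lyase gene PHAVU_001G177800g is listed on chromosome 1, from 44150743 to 44154391 on the plus strand, with 2 exons and an exon length of 2442 bases. PHAVU_001G1777001g lies upstream of it on the same strand, from 44141798 to 44143846, also with 2 exons, and its exon length is 1234 bases. The 2 lyase genes are 6896 bases apart, and a single-exon gene model of 725 bases, PHAVU_001G1777000g, stands between them. That model is on the same strand, 189 bases from PHAVU_001G1777001g. Whether it and PHAVU_001G1777001g belong to 1 gene was not tested. Positions are those of the deposited tables, which name no assembly.

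All 3 genes passed the filter on low counts, as did 22398 of the 27996 genes. Compared per length, the reductase was the most abundant of the 3 in every library. Its TPM lay at the 88.8th to 92.6th percentile of all genes in well-watered libraries, at the 66.3rd to 74.3rd in drought polymer libraries and at the 90.6th in the drought 6PP library. PHAVU_001G177800g ranged from the 56.2nd to the 82.7th percentile over the libraries and PHAVU_001G1777001g from the 35.7th to the 55.9th. The short lyase gene was thus a gene of moderate rank at most, with 47 to 258 reads in a library, against 471 to 3033 reads for its neighbour and 550 to 4026 for the reductase.

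**Figure D1:**
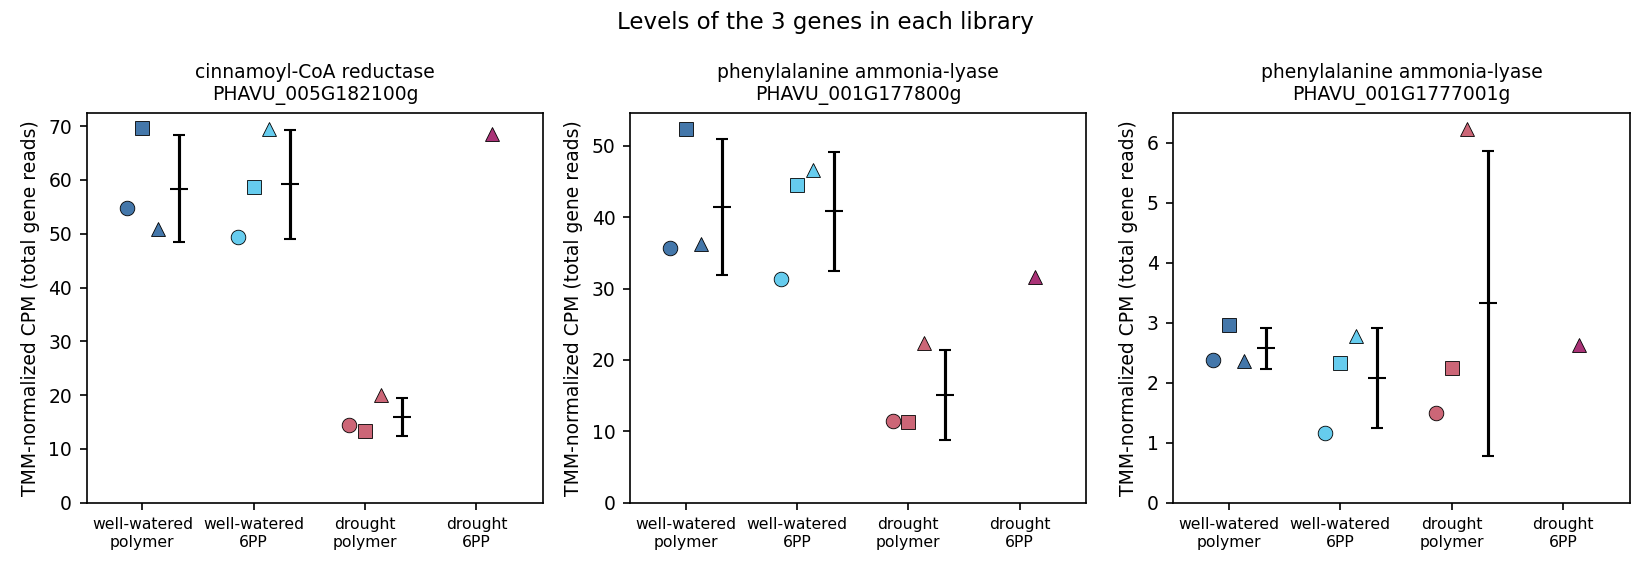
Level of each of the 3 genes in every library as TMM-normalized CPM (counts scaled to a common library total, vertical axis, linear from 0), by group; marker shapes stand for replicate numbers, and the bar beside each group of 3 libraries is its mean and SD. The reductase sits between 13.3 and 20.0 CPM in drought polymer plants and between 49.3 and 69.6 CPM in the other 7 libraries, while the levels of PHAVU_001G1777001g overlap between all groups.

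The plot of levels by library shows the reductase lower under drought in polymer plants. Its level was 14.5, 13.3 and 20.0 CPM (total gene reads scaled to a common library total, TMM-normalized) in drought polymer replicates 1, 2 and 3. In well-watered polymer replicates 1, 2 and 3 it was 54.7, 69.6 and 50.9 CPM. Each drought library was below each well-watered one, with group means of 15.9 ± 3.58 CPM (SD, n = 3) and 58.4 ± 9.87 CPM (SD, n = 3). The gene fell by 1.87 on the log2 scale (SE 0.18, 95% confidence interval -2.28 to -1.47), a level 3.67-fold lower, and met the 3 criteria taken from the study, which limit the log2 fold change to 0.6 or more in size, the FDR to 0.01 and the Bonferroni-adjusted p to 0.05 (edgeR quasi-likelihood test, FDR = 5.74e-06, Bonferroni-adjusted p = 0.0117). By p-value it ranked 2037 among the genes tested. The drought polymer libraries also stand in the comparison the genes were selected on, so this test is not independent of the selection. The Bonferroni limit alone was lost without drought polymer replicate 1 (log2 fold change -1.81, Bonferroni-adjusted p = 0.213), drought polymer replicate 2 (-1.77, 0.150) or well-watered polymer replicate 1 (-1.92, 0.0623), as well as under limma on TPM and in a fit of only the groups compared, while the FDR was 8.45e-05 or lower under every alternative run.

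The lyase gene PHAVU_001G177800g was also lower in drought polymer plants, though it did not meet all 3 criteria. Its level was 11.4, 11.4 and 22.3 CPM in drought polymer replicates 1, 2 and 3, and 35.7, 52.4 and 36.2 CPM in the well-watered ones. The groups did not overlap, and drought replicate 3 was the highest of its group by far. The means were 15.1 ± 6.32 CPM and 41.4 ± 9.51 CPM (SD, n = 3 each), a log2 fold change of -1.46 (SE 0.27, 95% confidence interval -2.05 to -0.88, edgeR quasi-likelihood FDR = 0.000678, Bonferroni-adjusted p = 1). It passed the limits on fold change and FDR and missed that on the Bonferroni-adjusted p. Under the Wald test of DESeq2 (log2 fold change -1.49) it was within all 3 limits.

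The short lyase gene showed no clear change, and whether its change differed from that of its neighbour was not tested. PHAVU_001G1777001g was at 1.5, 2.25 and 6.23 CPM in drought polymer replicates 1, 2 and 3, and at 2.39, 2.97 and 2.36 CPM in the well-watered polymer ones. Drought replicate 3 was above all well-watered libraries and replicates 1 and 2 were below all of them, so the groups overlapped. The log2 fold change of 0.37 had a 95% confidence interval of -0.69 to 1.42 and did not pass the test (edgeR quasi-likelihood FDR = 0.542). Without drought polymer replicate 3 it was -0.46. The interval reaches past 1, so at this depth and spread a rise of 1 on the log2 scale could not be told from none.

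Across the genes tested, 7.20% were lower in drought polymer plants under the 3 criteria, and 28.9% at an FDR of 0.05 alone. Of the 3 genes, 1 was lower under the criteria and 2 at that FDR, and 0 was higher. All drought polymer libraries lay below all well-watered polymer libraries for 32.5% of genes, against 2 of the 3 genes here. The median log2 fold change of the 3 genes was -1.46, beside -0.01 over all genes tested. Nothing is read from these counts or this median, because the genes were picked on a contrast that uses the same drought polymer libraries. The count over all genes (1613 lower, 2760 in either direction) was 1815 in either direction without drought polymer replicate 1 and 1668 without replicate 2.

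In well-watered plants, a comparison that shares no library with the selection, no difference between 6PP and polymer plants passed the test for any of the 3 genes. The reductase was at 49.3, 58.7 and 69.5 CPM in well-watered 6PP replicates 1, 2 and 3, beside the 50.9 to 69.6 CPM of polymer plants. The means of 59.2 ± 10.1 CPM and 58.4 ± 9.87 CPM (SD, n = 3 each) gave a log2 fold change of 0.02 (95% confidence interval -0.37 to 0.41, edgeR quasi-likelihood FDR = 0.994). A change as large as that with drought lies outside this interval, in either direction.

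PHAVU_001G177800g was at 31.3, 44.4 and 46.7 CPM in well-watered 6PP replicates 1, 2 and 3, beside 35.7 to 52.4 CPM in polymer plants. Its log2 fold change was -0.02 (95% confidence interval -0.59 to 0.55, edgeR quasi-likelihood FDR = 0.996). PHAVU_001G1777001g was at 1.16, 2.32 and 2.78 CPM with 6PP, which overlapped the 2.36 to 2.97 CPM of polymer plants. Its log2 fold change of -0.30 came with an interval of -1.37 to 0.77 (FDR = 0.946, the same test). At the depth and spread of this gene, a fall of 1 on the log2 scale could thus not be told from none. Over all genes, 0 (0%) met the 3 criteria in this comparison with edgeR's quasi-likelihood test, 1232 had an unadjusted p under 0.05, the smallest FDR was 0.465, and DESeq2's Wald test called 4.

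The drought comparison of 6PP with polymer is the one on which the genes were chosen, and it rests on 1 library of 6PP plants, so no error of the 6PP value can be given. In that library the reductase was at 68.6 CPM, where the 3 drought polymer libraries had 13.3 to 20.0 CPM, and it exceeded their mean log2 CPM by 2.13. PHAVU_001G177800g was at 31.7 CPM, above the 11.4 to 22.3 CPM of the polymer libraries, a log2 difference of 1.15. PHAVU_001G1777001g was at 2.62 CPM, inside the 1.5 to 6.23 CPM of the polymer libraries, a log2 difference of -0.08. The study, with 3 replicates per treatment, reports all 3 genes as up-regulated with 6PP under drought. PHAVU_001G1777001g did not stand above the polymer libraries in the 1 library used here, so that report was not tested. Over all genes, 18.0% were at least 0.6 higher in the 6PP library and above every polymer library, as 2 of the 3 genes were, and nothing is read from that count because the genes were picked on this contrast. By the size of the log2 difference the reductase ranked 696 and PHAVU_001G177800g 2011 of 22398 from the highest. The median difference over all genes was -0.09 on this scale and -0.26 on log2(TPM + 1), on which the reductase differed by 1.79 and PHAVU_001G177800g by 0.76.

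Set against well-watered 6PP plants, the drought 6PP library had the reductase and both lyase genes inside the range of the libraries without drought. The reductase, at 68.6 CPM, lay within the 49.3 to 69.5 CPM of well-watered 6PP libraries, a log2 difference of 0.23. PHAVU_001G177800g, at 31.7 CPM, was near the lowest well-watered library at 31.3 CPM, a log2 difference of -0.34. PHAVU_001G1777001g, at 2.62 CPM, was inside the 1.16 to 2.78 CPM of that group, a log2 difference of 0.41. Of the 3 genes, 0 was at least 0.6 lower than and below every well-watered 6PP library, beside 34.2% of all genes, and nothing is read from that count because the genes were picked with this library. Both drought comparisons share this 1 library, and whether the effect of drought differed between 6PP and polymer plants was not tested.

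**Figure D2:**
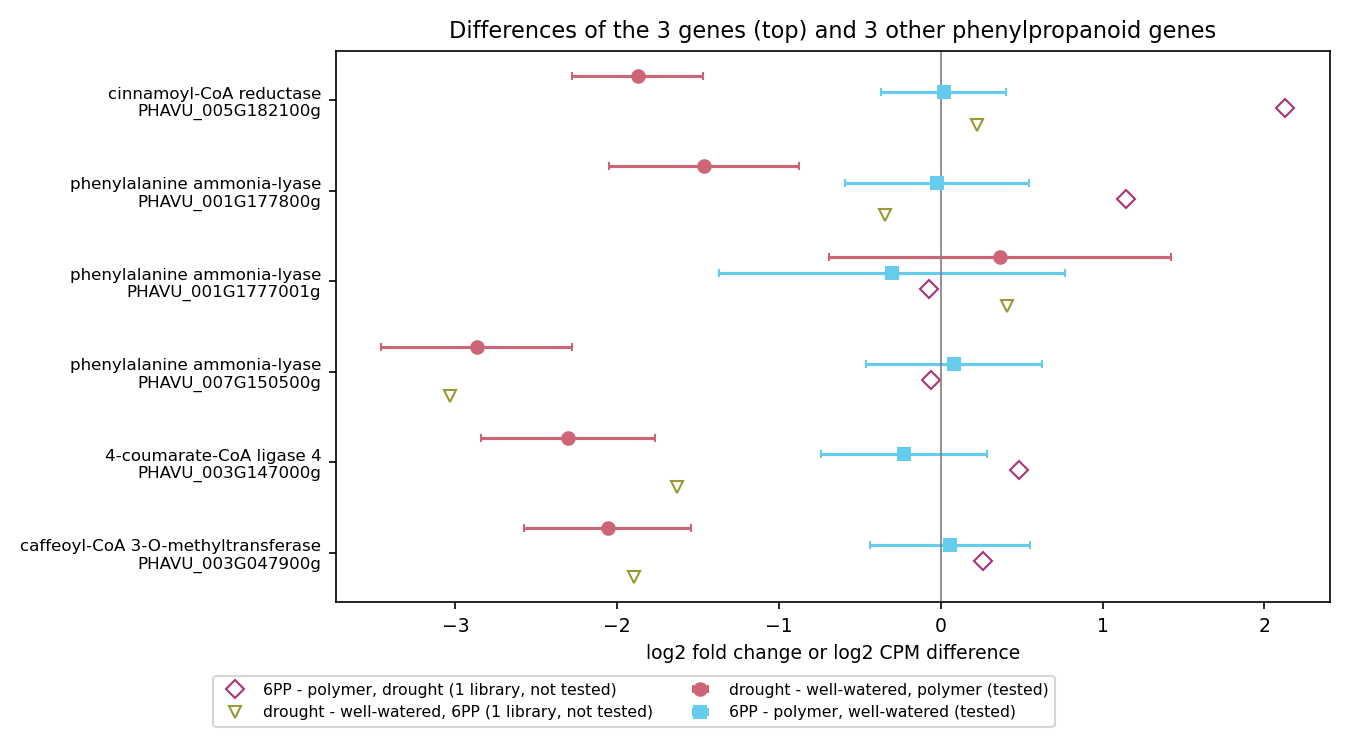
Log2 difference (horizontal axis) of the 3 genes, at the top, and of 3 other phenylpropanoid genes in 4 comparisons; filled symbols with bars are edgeR log2 fold changes with 95% confidence intervals from groups of 3 libraries, and open symbols are differences that rest on 1 drought 6PP library, without error. The reductase lies at -1.87 for drought in polymer plants and at 0.23 for drought in the 6PP library, whereas the lyase gene PHAVU_007G150500g lies at -2.87 and -3.03.

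Other genes of the pathway were taken as a list of 4, namely the 3 further phenylpropanoid genes the study names and C4H-1 (PHAVU_006G079700g), the cinnamate 4-hydroxylase gene that carries its own name in the tables. C4H-1 had 0 to 10 reads in a library and was not tested. In polymer plants under drought, 2 of the 3 tested genes were lower under the 3 criteria, 3 of 3 at an FDR of 0.05, and 0 was higher, beside 7.20% and 28.9% of all genes lower, with a median log2 fold change of -2.31. The study named these genes on the same samples. The other lyase gene the study names is PHAVU_007G150500g. It stood at 12.4, 10.5 and 20.4 CPM in drought polymer replicates 1, 2 and 3. In the well-watered ones it was at 126, 108 and 82.0 CPM. It fell by 2.87 on the log2 scale (SE 0.27, edgeR quasi-likelihood FDR = 4.02e-06). The difference between its change and those of the 3 genes was not tested.

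4-Coumarate-CoA ligase 4 (PHAVU_003G147000g), which activates coumarate, was at 55.4, 42.8 and 84.5 CPM in drought polymer replicates 1, 2 and 3 against 284, 367 and 252 CPM in well-watered ones, and its log2 fold change was -2.31 (edgeR quasi-likelihood FDR = 1.08e-05, Bonferroni-adjusted p = 0.0260). Caffeoyl-CoA 3-O-methyltransferase (PHAVU_003G047900g) was at 23.8, 23.1 and 41.8 CPM against 109, 154 and 107 CPM, and its log2 fold change was -2.06 (FDR = 1.94e-05, the same test, Bonferroni-adjusted p = 0.0544, so it was not counted under the 3 criteria). Both genes were lower in every drought polymer library than in any well-watered one, as 32.5% of all genes tested were. The Bonferroni limit decided several of these calls. The ligase lost it without any 1 of 5 polymer libraries (Bonferroni-adjusted p = 0.0583 to 0.454) and kept it without drought polymer replicate 3, the methyltransferase gained it without that replicate (0.00395), and PHAVU_007G150500g lost it without drought polymer replicate 1 (0.152) or 2 (0.0742). Counting every alternative, the ligase lost the call in 9 of 17 and PHAVU_007G150500g in 4, limma on TPM with either pseudocount among them. The methyltransferase gained it in 7, among them RLE normalization, both other filters, exon reads and DESeq2. These 7 include the setting with an FDR of 0.05 as the only limit, where the Bonferroni limit was not applied. The FDR of these 3 genes was 0.000200 or lower under every alternative run.

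In well-watered plants 0 of these 3 genes passed with 6PP, with log2 fold changes of 0.08 for PHAVU_007G150500g, -0.23 for the ligase and 0.06 for the methyltransferase. In the drought 6PP library they did not stand above the drought polymer libraries. The study, with 3 replicates per treatment, reports these genes as up-regulated with 6PP under drought. The values here rest on 1 drought 6PP library, so that report was not tested. PHAVU_007G150500g was at 13.3 CPM, the methyltransferase at 34.1 CPM and the ligase at 82.0 CPM, each inside the range of the 3 drought polymer libraries. All 3 were at least 0.6 lower than, and below, every well-watered 6PP library, as 34.2% of all genes were. Their log2 differences were -3.03, -1.89 and -1.63 in that order.

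The 3 lyase genes the study names can be set side by side by their TPM, which are comparable between genes. Shares below are of the summed TPM of these 3, since other lyase genes could not be recognized without gene descriptions. In well-watered libraries PHAVU_007G150500g provided 62.9% to 80.4% of the summed TPM of the 3 lyase genes, and PHAVU_001G177800g 18.3% to 34.0%. In drought polymer replicates 1, 2 and 3 the sum was 17.7, 16.4 and 35.2 TPM, against 106, 107 and 75.1 TPM in the well-watered polymer replicates, and PHAVU_001G177800g provided 43.8%, 43.9% and 41.8% of it. In the drought 6PP library the sum was 25.8 TPM, within the range of drought polymer plants, and PHAVU_001G177800g provided 64.5% of it. On total reads PHAVU_001G177800g was the most abundant of the 3 lyase genes in that library and in drought polymer replicates 2 and 3, and PHAVU_007G150500g was in the other 7. On unique reads alone the order turned round in drought polymer replicate 2 (38.8% for PHAVU_001G177800g and 45.8% for PHAVU_007G150500g) and replicate 3 (37.7% and 43.8%), while in the drought 6PP library PHAVU_001G177800g still had the larger share (59.6% and 31.5%).

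**Figure D3:**
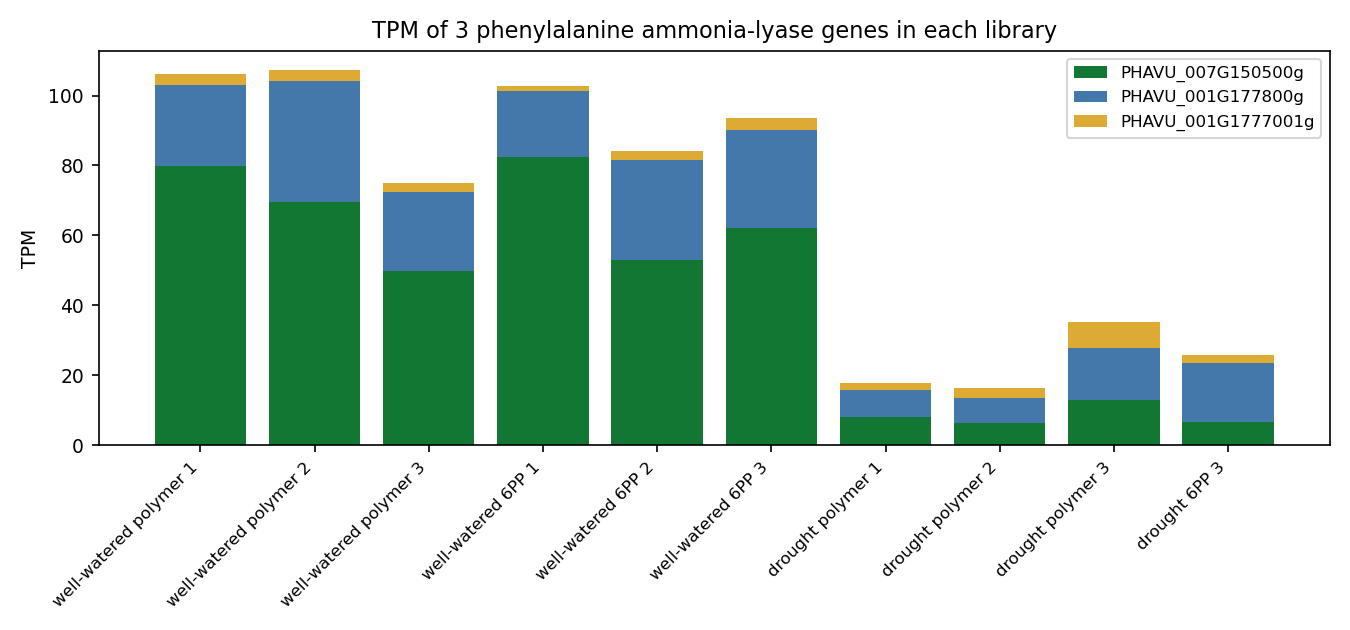
TPM of the 3 phenylalanine ammonia-lyase genes that the study names (vertical axis, linear from 0), stacked, with 1 bar per library. Bars reach 75.1 to 107 TPM in well-watered libraries and 16.4 to 35.2 TPM in drought libraries, and the part of PHAVU_007G150500g is the one that shrinks most in TPM.

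PHAVU_001G1777001g kept a small part of the summed TPM of these 3 genes, 1.26% to 3.50% in well-watered libraries. The part was 10.6%, 17.2% and 21.4% in drought polymer replicates 1, 2 and 3 and 9.36% in the drought 6PP library. In TPM the ratio of PHAVU_001G177800g to PHAVU_001G1777001g was 7.55 to 14.5 in the 6 well-watered libraries. It was 4.14, 2.56 and 1.95 in the drought polymer ones and 6.89 in the drought 6PP library. The groups of polymer plants did not overlap in this ratio, which is a description without a test. Nothing is read from it, because both genes were picked on a contrast that uses the same drought polymer libraries.

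The 2 neighbouring lyase genes share reads, so their counts were compared with unique gene reads, those that fit a single position in the genome. Over the 10 libraries, 78.2% of 14193 reads on PHAVU_001G177800g and 81.6% of 1147 reads on PHAVU_001G1777001g were unique, and 64.4% of 1326 on the model between them. Only 0.853% and 1.03% of the genes tested had a lower unique share than the 2 lyase genes. All reads on the reductase and on PHAVU_007G150500g were unique, so neither of these shares reads with the neighbouring lyase genes. The other positions of the shared reads are not listed in the tables.

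**Figure D4:**
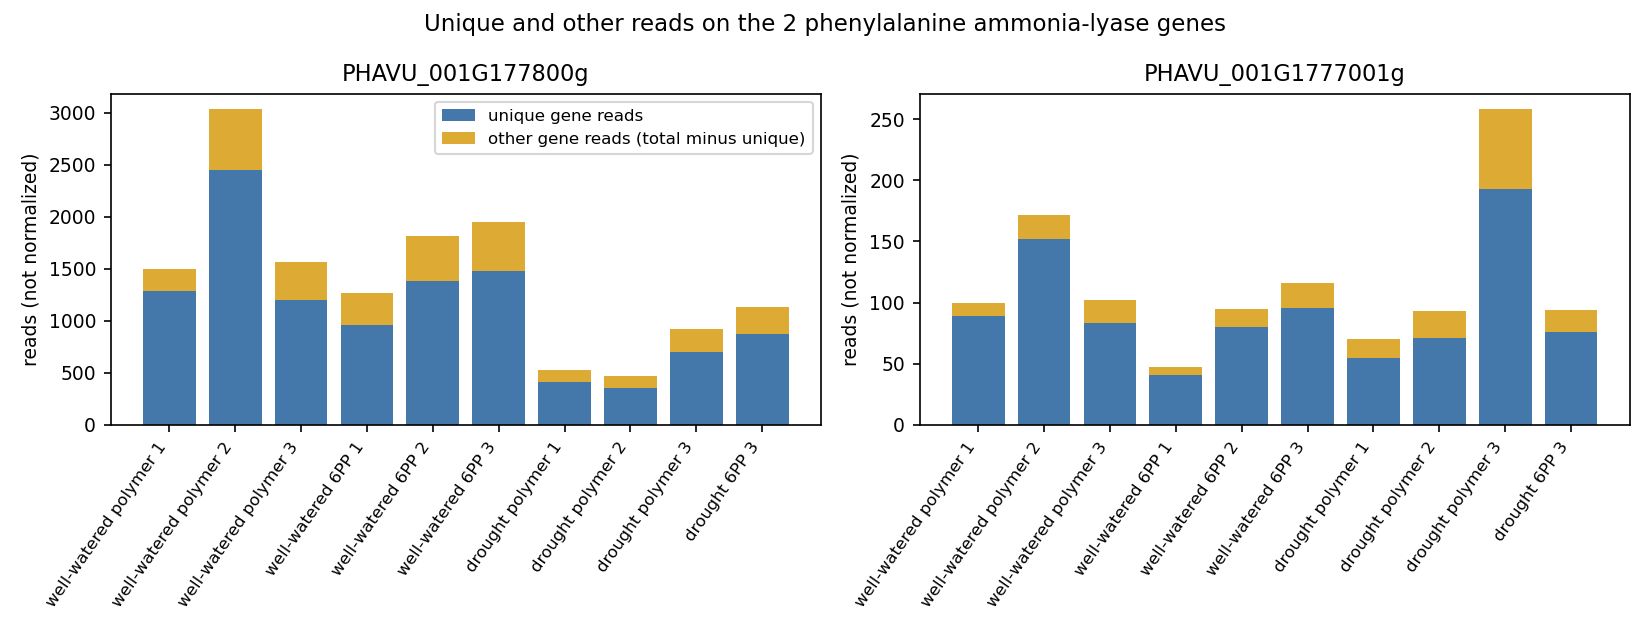
Reads on PHAVU_001G177800g (left) and PHAVU_001G1777001g (right) in each library, not normalized, with unique gene reads at the bottom of each bar and the other gene reads on top. The unique part is 74.9% to 86.2% of the bar on the left and 74.8% to 89.0% on the right.

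For PHAVU_001G177800g the unique share was 77.3%, 74.9% and 75.8% in drought polymer replicates 1, 2 and 3, 76.7% in the drought 6PP library (Wilson 95% interval 74.1% to 79.0%) and 76.0%, 76.0% and 75.8% in well-watered 6PP plants. Well-watered polymer replicates 1, 2 and 3 were at 86.2%, 80.7% and 76.7%, so replicate 1 of that group stood highest. Intervals of this kind cover counting error only. For PHAVU_001G1777001g the unique share was 78.6%, 76.3% and 74.8% in drought polymer plants, lower than the 81.4% to 89.0% of well-watered polymer plants. These shares rest on 70, 93 and 258 reads, against 100, 172 and 102 in well-watered polymer replicates 1, 2 and 3. Wilson 95% intervals of drought polymer replicates 1 and 2 (67.6% to 86.6% and 66.8% to 83.8%) reached into the well-watered range. That of replicate 3 (69.2% to 79.7%) did not. The drought 6PP library was at 80.9%, of 94 reads (Wilson 95% interval 71.7% to 87.5%).

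Counting unique reads alone left the direction of PHAVU_001G177800g and of the reductase as it was. In drought polymer plants the log2 fold change of PHAVU_001G177800g became -1.56 (edgeR quasi-likelihood FDR = 0.000433) and that of PHAVU_001G1777001g 0.17 (FDR = 0.780). In the drought 6PP library their log2 differences from polymer plants became 1.17 and 0.01. How shared reads were divided among positions is not known here, so their levels are a description only. For PHAVU_001G177800g they were at 2.60 to 5.41 CPM in drought polymer, 7.40 CPM in the drought 6PP and 7.51 to 11.3 CPM in well-watered 6PP libraries. The 4.94 to 10.1 CPM of well-watered polymer libraries overlapped the drought polymer range. The ratio of the 2 genes in TPM from unique reads was 7.31 to 12.8 in well-watered libraries, 2.03 to 4.15 in drought polymer ones and 6.74 in the drought 6PP library, so polymer plants with and without drought did not overlap in it either. The selection on the drought polymer libraries limits this ratio in the same way.

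Reads on introns were a measure the selection did not use. For the reductase they made up 14.6%, 11.4% and 8.20% of gene reads in drought polymer replicates 1, 2 and 3, 5.41%, 9.71% and 8.86% in well-watered polymer ones, 7.87%, 10.5% and 7.37% in well-watered 6PP ones and 9.24% in the drought 6PP library (Wilson 95% interval 8.16% to 10.4%). The groups overlapped. PHAVU_001G177800g had 0% to 0.758% intron reads, far under the median of 5.72% over the genes tested, as did PHAVU_007G150500g with 0.304% to 1.32%. PHAVU_001G1777001g ran from 0% to 14.0%, on few reads. Counting exon reads alone gave log2 fold changes for drought in polymer plants of -1.93 for the reductase, -1.47 for PHAVU_001G177800g and 0.40 for PHAVU_001G1777001g.

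In each group of 3 libraries 1 was the highest for most genes of the pathway. Drought polymer replicate 3 was the highest of the 3 drought polymer libraries for all 6 tested genes of the pathway, by 1.51 times over the lowest for the reductase and 4.14 times for PHAVU_001G1777001g. Without it the log2 fold changes for drought in polymer plants were -2.08 for the reductase and -1.87 for PHAVU_001G177800g, and the log2 differences of the drought 6PP library from polymer plants were 2.30, 1.47 and, for PHAVU_001G1777001g, 0.50. Well-watered polymer replicate 2, the deepest library, was the highest of its group for 5 of the 6 genes, at 1.26 to 1.47 times the lowest for the 3 selected ones. Well-watered 6PP replicate 3 was the highest of its group for 5 of the 6 genes too, at 1.41 times the lowest library for the reductase, 1.49 times for PHAVU_001G177800g and 2.39 times for PHAVU_001G1777001g. The part of these libraries in the levels was not tested.

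The likeness of profiles was measured as the root mean square difference of log2 CPM, centred on each gene's mean, over the 10 libraries. The reductase and PHAVU_001G177800g differed by 0.31, which placed the lyase gene 46th among the genes nearest to the reductase, while the 2 lyase genes differed by 0.87. Genes nearest to the reductase were PHAVU_007G057600g at 0.19, PHAVU_001G239300g at 0.20 and PHAVU_009G011200g at 0.21. Each of these was also lower in drought polymer plants under the 3 criteria (log2 fold changes -1.97, -1.60 and -2.02) and above every polymer library in the drought 6PP library. PHAVU_008G088500g at 0.17, PHAVU_004G084700g at 0.18 and PHAVU_008G149800g at 0.19 were nearest to PHAVU_001G177800g. For PHAVU_001G1777001g the nearest gene, PHAVU_008G277000g, was at 0.33, farther than the nearest of the other members. The files do not name these genes, and they were picked for their profiles, so their values describe the libraries and support nothing about the 3 genes.

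Genes next to the members in the genome were described in the same comparisons. PHAVU_005G182000g, which ends just before the reductase gene on the other strand, was at 88.9, 86.1 and 63.0 CPM in drought polymer replicates 1, 2 and 3 and at 20.8, 24.3 and 20.5 CPM in well-watered ones. It rose by 1.86 on the log2 scale (edgeR quasi-likelihood FDR = 2.94e-06, Bonferroni-adjusted p = 0.00493), opposite to the reductase, and missed the Bonferroni limit without drought polymer replicate 2 (0.0512) or well-watered polymer replicate 1 (0.0852) or 3 (0.0769). PHAVU_005G182200g, on the other side, had a log2 fold change of 0.66 (FDR = 0.00870, the same test) and did not meet the 3 criteria. Around the lyase genes, PHAVU_001G1777000g, PHAVU_001G177900g and PHAVU_001G177600g had log2 fold changes of 0.07, -0.36 and -0.05 and did not pass (FDR = 0.852, 0.102 and 0.947), so of the 5 gene models in that stretch PHAVU_001G177800g was the one that passed an FDR of 0.05. In the drought 6PP library PHAVU_001G177600g, a single-exon model with 11 to 47 reads in a library, was above every drought polymer library, with a log2 difference of 1.41 beside the 1.15 of PHAVU_001G177800g. PHAVU_005G182000g and PHAVU_001G177900g were also above (0.55 and 0.15, the second at -0.17 on log2(TPM + 1)), PHAVU_001G1777000g was inside their range (0.03) and PHAVU_005G182200g was below it (-0.52).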

How the data were processed

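RNA from leaves was sequenced by the authors as 150-bp paired-end reads, trimmed, aligned to the BAT93 genome and counted in CLC Genomics Workbench 21.0.4, per the study's methods. The deposited tables list counts of reads per gene (total, unique, exon and intron reads, not normalized) and TPM values. For these, reads per exon length were scaled to the same total in every library. Aligned reads could be placed at up to 10 positions, so genes with near copies share reads.

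Total gene reads were fitted with edgeR 4.0.16 under R 4.3.3 (filterByExpr, TMM, quasi-likelihood test) in 1 model of 4 group means over 10 libraries, without covariates. The plan had 12 libraries. P-values were adjusted over the 22398 genes kept (Benjamini-Hochberg, Bonferroni). The common dispersion had a square root of 0.204. Standard errors were derived from the F statistic, as log2 fold change divided by its square root. Log2 CPM used a prior count of 2. Libraries had 39974999 to 55648172 gene reads. Replicates are labelled biological, each a pool of 5 plants. The fit was tested on simulated data.

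Alternatives were RLE normalization, 2 other filters (none, or at least 10 reads in every library), unique or exon reads, DESeq2 1.42.0, limma 3.58.1 on log2 TPM with a pseudocount of 1 or 0.1, only the groups compared, a replicate block, FDR 0.05 alone, and each library left out. Named genes were the members, the other pathway genes the study or the tables name, the genes next to members and the 3 nearest in profile to each. The members and lists were chosen with earlier results of these data known. Of the gene identifiers, 0 matched the RefSeq table used for names and 152 genes have a name of their own in the files. Tables of drought 6PP replicates 1 and 2 were not used, since no label says which is the sample. Columns of RPKM were not used.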

Additional observations from a re-analysis of the deposited data

How the results depend on the processing

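Of 17 alternatives per tested comparison, the reductase in drought polymer plants kept its direction under all and missed the Bonferroni limit under limma on log2(TPM + 1) (-1.86) or log2(TPM + 0.1) (-1.92) and in a fit of only the groups compared (-1.89), with -2.08 to -1.73 when libraries were left out. PHAVU_001G177800g (-1.87 to -1.26 with a library left out) met the limits under DESeq2 (-1.49) and passed where an FDR of 0.05 was the only limit (-1.46). PHAVU_001G1777001g ran from -0.46 to 0.72 with a library left out. Genes meeting the limits numbered 6225 under DESeq2 and 1668 to 2130 with a library left out, while 12588 passed an FDR of 0.05 as the only limit. With 6PP in well-watered plants 4 genes met the limits under DESeq2. There, values near 0 changed sign. For the reductase they were -0.07 under limma with either pseudocount (-0.065 and -0.066) and -0.12 to 0.17 with a library left out, for PHAVU_001G177800g -0.13 to 0.18 with a library left out. Under limma PHAVU_007G150500g was at -0.0058 with both pseudocounts and the methyltransferase at -0.0018 with both, with ranges of -0.13 to 0.24 and -0.094 to 0.25 when libraries were left out. Among neighbours under drought, PHAVU_001G1777000g was at -0.13 on unique reads, and from -0.21 to 0.29 with a library left out, and PHAVU_001G177600g ranged from -0.32 to 0.24. On log2(TPM + 1) the drought 6PP library exceeded polymer plants by 1.79 for the reductase. The cause of these differences was not tested.

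Same-numbered libraries did not deviate together (correlations of -0.09 to 0.16 over 9 pairs, -0.15 to 0.14 for other pairs), so numbers were not taken as pairs. With the replicate block, 2267 genes met the limits for drought in polymer plants and 0 for 6PP in well-watered plants, the reductase was at -1.89, PHAVU_001G177800g at -1.50 and PHAVU_001G1777001g at 0.12, and the ligase, at -2.34, missed the Bonferroni limit. The median over all genes of the drought 6PP library minus polymer plants was -0.09 with TMM, -0.02 with RLE, -0.26 on log2(TPM + 1) and -0.37 on log2(TPM + 0.1). Minus well-watered 6PP plants it was -0.08, -0.03, -0.19 and -0.29. Depth limits PHAVU_001G1777001g most, at 47 to 258 reads a library, and the drought 6PP values have no replicate error.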
